A study of Oryctolagus cuniculus with 4 samples.

Results

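Chemokines, interleukins, members of the tumor necrosis factor (TNF) superfamily and the receptors of all 3 were described in intact rabbit tendon. They were taken from the count table by symbol, as the genes whose name starts with CCL, CXCL, CCR, CXCR or IL followed by a digit, or with TNFSF or TNFRSF. The rule found 109 genes among 13225 named genes and 20294 genes in all: 11 CC chemokines, 6 CXC chemokines, 11 chemokine receptors, 29 interleukin ligands, 32 interleukin receptors, 7 TNFSF ligands and 13 TNFRSF receptors. A RefSeq list of rabbit genes (assembly mOryCun1.1) holds 148 symbols of this kind, of which 41 had no entry under that name, among them IL6, CXCL12, CXCL14, CCR2, IL18 and IL33. A symbol without an entry says nothing about expression.

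The tissue was the whole semitendinosus tendon, a hamstring tendon used as a graft, from 4 female New Zealand White rabbits of 193 days, without treatment, 1 tendon from each animal. Surface muscle had been scraped away before freezing, and polyadenylated RNA was sequenced. All 4 tendons form 1 group, so the values are levels and the spread between animals, with no control to compare them with. Whole tissue was ground, and in such samples fewer cells of a type and less RNA per cell cannot be told apart.

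Total estimated counts ranged from 19759696 to 30646052 per tendon, so that 3 counts corresponded to between 0.0979 and 0.152 CPM, counts scaled to a total of 1000000. Levels are given as TPM, which scale to the same total, correct for transcript length and allow genes to be compared with each other. All 7 tenocyte markers with an entry, out of 9 symbols, had a mean of at least 1 TPM, and their summed level ran from 17216 to 46032 TPM. Skeletal muscle markers, 9 of 10 symbols with an entry, summed to between 7447 and 29524 TPM, so muscle RNA was in the libraries too.

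Chemokines are small secreted proteins that guide migrating leukocytes along gradients. The spacing of their first cysteines parts them into CC and CXC families, and they act through G protein-coupled receptors. Interleukins signal mainly through JAK kinases and STAT factors, or, in the IL-1 and IL-17 families, through adaptors that lead to NF-kappaB. TNF superfamily ligands bind trimeric receptors that recruit TRAF adaptors or, where they carry a death domain, caspase activators. Tendon has few resident leukocytes, and its fibroblasts both make and sense such signals.

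Together the 109 genes took 0.115% ± 0.0126 of TPM (SD, n = 4), and receptors took more of it than ligands. Interleukin receptors summed to 486 ± 49.6 TPM, CC chemokines to 212 ± 46.3 TPM, TNFRSF receptors to 212 ± 33.1 TPM and interleukin ligands to 162 ± 23.7 TPM. TNFSF ligands summed to 58.9 ± 3.33 TPM, chemokine receptors to 12.9 ± 5.55 TPM and CXC chemokines to 10.3 ± 7.52 TPM. CCL21, IL11RA and IL6ST held 40.5% of the summed level, and the 10 most abundant genes held 68.02%. The CC class was in effect CCL21, which made up 77.1% of it. In summed TPM, TNFSF ligands varied least between tendons relative to their mean. In CPM they did not, with a share of 0.00740% ± 0.00116, against 0.0655% ± 0.00549 for interleukin receptors. CXC chemokines ranged from 3.08 TPM in tendon 2 to 20.9 TPM in tendon 4.

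**Figure D1:**
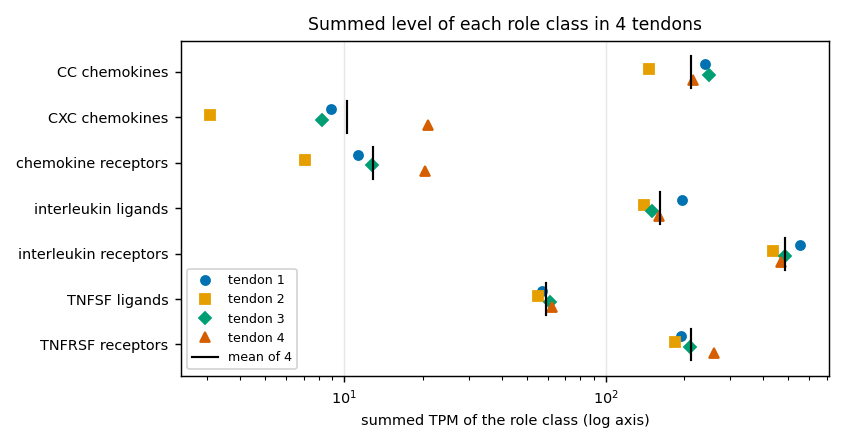
Summed TPM of the 7 role classes on a log axis, with 1 point per tendon and the mean of 4 as a bar. Interleukin receptors had the highest sums, between 436 and 553 TPM, and CXC chemokines the widest spread, from 3.08 to 20.9 TPM.

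Most of these genes were at low levels. A mean of at least 1 TPM was reached by 53 of 109 (48.6%), against 75.4% of all named genes. By class, 7 of 11 CC chemokines, 3 of 6 CXC chemokines, 3 of 11 chemokine receptors, 11 of 29 interleukin ligands, 18 of 32 interleukin receptors, 3 of 7 TNFSF ligands and 8 of 13 TNFRSF receptors did so. With tendon 4 left out, 50 genes averaged 1 TPM or more. In every one of the 4 tendons, 46 genes were at 1 TPM or more. Another 13 genes were listed at 0 in all 4 tendons: IL2, IL4, IL12B, IL17A, IL17F, IL19, IL20, IL21, IL22, IL26, IL1F10, TNFSF15 and TNFRSF13B. The 11 interleukins among them are mostly products of lymphocytes and myeloid or epithelial cells. At 3 counts, the depth allowed levels of up to 0.210 TPM for the longest of their transcripts (IL22) and 0.663 TPM for the shortest (IL21). A further 12 had at least 1 but no more than 3 counts in any tendon, among them CCR1, CCR3, CCR8, IL13 and TNFSF11.

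CC chemokines were led by CCL21, which draws CCR7-bearing dendritic cells and T cells and is made by lymphatic endothelium. It stood at 206, 115, 187 and 148 TPM in tendons 1 to 4, a mean of 164 ± 40.7 TPM (SD, n = 4), rank 531 of the named genes. Every tendon had at least 115 TPM, and tendon 2 was the lowest. CCL19, the other CCR7 ligand, was far lower, at 4.04, 4.53, 6.16 and 10.4 TPM. CCL14, a chemokine of plasma and stroma, stood at 11.6, 15.7, 31.6 and 25.8 TPM, with tendons 3 and 4 above the other two. CCL2, a monocyte attractant made by fibroblasts, endothelium and macrophages, had 6.92, 3.86, 10.8 and 18.1 TPM, highest in tendon 4. CCL27, a chemokine of skin keratinocytes, was steadier, at 5.11 ± 0.912 TPM. CCL11 (eotaxin), which acts on eosinophils, had 3.099 ± 1.15 TPM, and CCL5, a chemokine of T cells and platelets, 1.99 ± 0.725 TPM. CCL1, CCL17, CCL20 and CCL22 had means from 0.158 to 0.441 TPM and at most 8 counts in a tendon.

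The 3 CXC chemokines above 1 TPM differed widely between tendons. CXCL10 and CXCL11, interferon-inducible ligands of CXCR3 that attract T cells and natural killer cells, were both highest in tendon 4. CXCL10 had 1.61, 1.88, 5.64 and 12.7 TPM from 8, 16, 43 and 106 counts. CXCL11 had 1.65, 0.458, 0.819 and 4.99 TPM from 21, 10, 16 and 107 counts. Without tendon 4 it averaged 0.975 TPM, so it passed 1 TPM only through that tendon and had to be high there. CXCL9, the third ligand of that receptor, stayed under 1 TPM on average but had 79 counts in tendon 4 against 7 to 10 in the others. CXCL8 (interleukin-8), the main neutrophil attractant, went another way, with 5.01 TPM in tendon 1 and 0.510, 1.33 and 1.18 TPM in tendons 2 to 4. CXCL13 and CXCL17 had no more than 3 counts in any tendon.

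Chemokine receptors were the class with the smallest share above 1 TPM, 3 of 11. CXCR4, the receptor of the stromal ligand CXCL12, led at 5.14, 3.29, 6.398 and 9.81 TPM, highest in tendon 4 and lowest in tendon 2. CCR9, a receptor of gut-homing T cells, had 2.897 ± 0.900 TPM, although its counts were not whole numbers (described below). CXCR6, carried by memory T cells and natural killer T cells, had 0.683, 0.456, 0.891 and 1.97 TPM, from at most 34 counts. Without tendon 4 it averaged 0.677 TPM, so it passed 1 TPM only through that tendon. CCR7, the receptor for CCL19 and CCL21, had 0.430, 0.452, 0.505 and 1.76 TPM. Tendon 4 lay 3.48-fold above the next tendon for CCR7 in CPM. CCR6 and CCR10 had means of 0.881 and 0.734 TPM.

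Interleukin ligands were led by IL34, an alternative ligand of the CSF1 receptor that maintains tissue macrophages. It stood at 119.8, 70.4, 63.7 and 62.1 TPM in tendons 1 to 4, a mean of 79.02 ± 27.5 TPM (SD, n = 4). Tendon 1 was well above the other 3, which lay close together. Next came IL17D, an IL-17 family member expressed in muscle and fat, at 18.02, 25.3, 20.4 and 28.6 TPM. IL17B, of the same family, had 2.097, 10.7, 3.98 and 7.03 TPM and was highest in tendon 2. IL17A and IL17F, the T cell members, were listed at 0. IL16, a CD4 ligand cut from a widely expressed precursor, stood at 18.1 ± 5.498 TPM. The order of these ligands depends on the length correction. In CPM, IL16 averaged 77.2 and IL36A 29.6, above IL34 at 25.4, while IL17D had 4.71.

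Ligands of the IL-1 family were uneven. IL36A, an epithelial member, had the highest mean of them, 21.5, 10.5, 17.4 and 21.5 TPM by tendon. IL36RN, the antagonist of the IL-36 receptor, had 4.09 ± 1.45 TPM, IL1A 3.53 ± 1.04 TPM and IL36G 1.62 ± 0.410 TPM. Estimated counts of these 4 genes were not whole numbers. IL1B, the classical inflammatory member, had 0, 0, 1 and 9 counts in tendons 1 to 4. IL1RN, which blocks the IL-1 receptor, had 0.234, 0.615, 0.915 and 3.02 TPM from 4, 18, 24 and 87 counts, highest in tendon 4. It averaged 1 CPM only through that tendon, so it had to be high there. IL15, which sustains natural killer and memory T cells and is also made by muscle, had 1.55, 3.23, 3.94 and 5.34 TPM, lowest in tendon 1. IL7, a stromal lymphocyte survival factor, had 1.93 ± 0.862 TPM. IL10, IL12A, IL23A, IL25 and IL5 had means under 1 TPM.

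The interleukin receptor class held the 2 highest receptors of the whole set. IL11RA, which pairs with gp130 to bind IL-11, stood at 183, 166, 146 and 155 TPM, a mean of 163 ± 15.9 TPM (SD, n = 4). IL6ST, which encodes gp130, the signal-transducing chain shared by IL-6, IL-11, LIF and related cytokines, stood at 195, 123, 136 and 109 TPM, a mean of 141 ± 37.9 TPM. CCL21, IL11RA and IL6ST were not separated in order: the first exceeded the second in 2 of 4 tendons, and the second the third in 3 of 4. IL6R, the chain that binds IL-6 itself, had 4.67, 2.91, 7.47 and 6.21 TPM.

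IL13RA1, the chain that pairs with IL4R to bind IL-4 and IL-13, had 37.4, 31.4, 49.2 and 52.3 TPM, with tendons 3 and 4 highest. IL4R had 6.59, 12.9, 8.71 and 13.1 TPM, high in tendons 2 and 4. IL13RA2, a decoy for IL-13, had 4.73 ± 0.987 TPM. In the IL-17 receptor family, all 5 members passed 1 TPM: IL17RC at 33.1 ± 5.72 TPM, IL17RD at 16.6 ± 4.03 TPM, IL17RE at 10.2 ± 5.14 TPM, the shared chain IL17RA at 6.71 ± 0.743 TPM and IL17RB at 1.47 ± 0.413 TPM. IL17RE, the receptor for IL-17C, had 12.7, 7.52, 16.1 and 4.61 TPM and was lowest in tendon 4, where most of the other genes were highest.

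Receptors of IL-1 were at moderate levels. IL1R1, the signalling receptor, had 10.1 ± 1.66 TPM, IL1R2, its decoy, 7.65 ± 1.45 TPM and the shared accessory chain IL1RAP 3.19 ± 0.645 TPM. IL18BP, a secreted inhibitor of IL-18, had 19.97 ± 3.37 TPM. The IL-18 receptor chains were much lower: IL18R1 had 1 to 17 counts by tendon, and IL18RAP had 10 counts in tendon 4 and 0 in the others. IL10RA, a leukocyte chain of the IL-10 receptor, had 3.29, 1.65, 3.54 and 5.92 TPM. IL7R, a lymphocyte receptor, had 3, 12, 19 and 65 counts.

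Among TNFSF ligands, TNFSF12-TNFSF13 had the highest level, 40.9, 39.2, 40.1 and 33.5 TPM, a mean of 38.4 ± 3.37 TPM (SD, n = 4). This entry is a read-through of the neighbouring genes for TWEAK and APRIL, so its reads cannot be assigned to either cytokine. TNFSF10 (TRAIL), a ligand of death receptors, had 12.7, 13.3, 17.7 and 24.5 TPM, highest in tendon 4. TNFSF8 (CD30 ligand) had 2.49 ± 0.311 TPM. TNFSF13B (BAFF), a B cell survival factor of myeloid cells, had 7, 14, 26 and 77 counts. TNFSF11 (RANKL), which drives osteoclast formation, had 2, 1, 0 and 2 counts.

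TNFRSF receptors had the highest median of the classes, 6.67 TPM, against 0.881 TPM over all 109 genes and 11.8 TPM over named genes. TNFRSF1A, the broadly expressed TNF receptor with a death domain, was steady at 42.4, 40.2, 48.6 and 47.7 TPM, a mean of 44.7 ± 4.06 TPM. TNFRSF1B, the second TNF receptor, without a death domain, had 17.2 ± 3.43 TPM. TNFRSF11B (osteoprotegerin), a secreted decoy for RANKL and TRAIL, had 23.6, 37.2, 55.1 and 61.5 TPM, so tendon 1 was lowest and tendons 3 and 4 were highest. In each tendon it lay at least 159-fold above TNFSF11, with the latter taken at 3 counts, and at least 698-fold in tendon 4. TNFRSF11A (RANK), the receptor itself, had 4.85 ± 1.04 TPM. TNFRSF21 (death receptor 6) had 46.9, 25.7, 25.6 and 42.5 TPM, in which tendons 1 and 4 stood above the others. TNFRSF19 (TROY), a receptor of stem and progenitor cells, had 28.8 ± 5.53 TPM. TNFRSF12A (Fn14), the receptor for TWEAK, rises in injured muscle and other tissues and had 18.2, 27.5, 29.3 and 38.99 TPM here. TNFRSF25 (death receptor 3) had 6.67 ± 2.28 TPM. TNFRSF13C, TNFRSF17, TNFRSF8 and TNFRSF9, mostly receptors of lymphocytes, had means under 1 TPM.

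**Figure D2:**
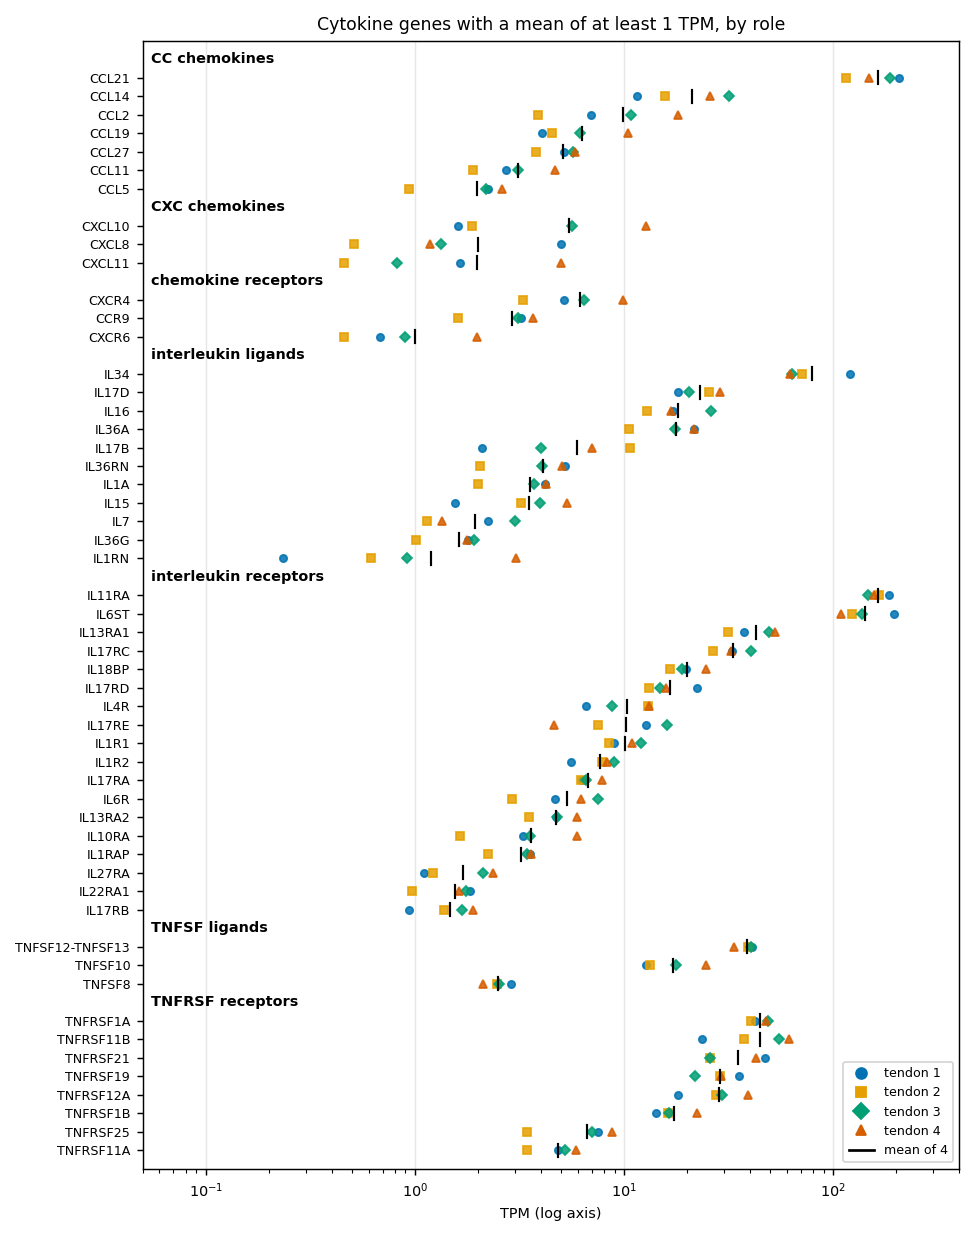
TPM on a log axis of the 53 genes that averaged 1 TPM or more, ordered by role and mean, with 1 point per tendon and the mean of 4 as a bar. CCL21, IL11RA and IL6ST lie above all others in every tendon, at 109 TPM or more, and CXCL10 runs from 1.61 to 12.7 TPM.

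In the order of means, most neighbours were not apart. Of the 19 steps between the 20 most abundant genes, 3 held in all 4 tendons with a mean difference above its SD: IL6ST over IL34, IL34 over TNFRSF1A, and TNFRSF12A over IL17D. TNFRSF1A, TNFRSF11B, IL13RA1, TNFSF12-TNFSF13, TNFRSF21 and IL17RC, with means from 44.7 to 33.1 TPM, did not differ from each other, neighbour by neighbour, beyond the spread.

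Of 20 ratios chosen by name between paired chains, decoys and ligands with their receptors, 9 could be tested; 9 lacked an entry and 2 had under 3 counts in a tendon. No ratio of TPM crossed 1 between tendons. The exact two-sided sign-flip permutation test over tendons gave p = 0.13 for each, the smallest it allows with 4 tendons, and adjustment by Benjamini-Hochberg over the 9 left it at 0.13, so none could reach 0.05. IL6ST was 41.8, 42.2, 18.2 and 17.5 times IL6R in tendons 1 to 4, so the ratio was higher in tendons 1 and 2. IL6ST was 6.56- to 12.1-fold above LIFR, its partner in binding LIF. IL13RA1 was 7.96- to 10.3-fold above the decoy IL13RA2. TNFRSF1A was 2.15- to 2.98-fold above TNFRSF1B. IL1R1 exceeded its decoy IL1R2 by less, 1.08- to 1.61-fold, and the accessory chain IL1RAP was 0.263 to 0.393 times IL1R1. IL17RA was 0.162 to 0.241 times IL17RC, with which it forms the receptor of IL-17A. TNFSF10 was 0.321 to 0.539 times TNFRSF11B. In CPM that ratio crossed 1, with TNFSF10 at 24.4 and TNFRSF11B at 23.9 in tendon 1. Its mean log2 ratio in CPM was -0.417 (exact permutation test, p = 0.25). IL34 was 6.38, 5.01, 1.97 and 1.71 times CSF1R, a mean log2 ratio of 1.69 ± 0.95 (SD, n = 4), but in CPM, without length correction, the mean log2 ratio was -0.81 (exact permutation test, p = 0.375).

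Other genes of these pathways were taken from lists chosen by name and are given as levels, to be read beside the 75.4% of named genes that averaged 1 TPM or more. In the list of JAKs, STATs and SOCS inhibitors, all 13 with an entry, of 16 symbols, had a mean of at least 1 TPM, led by STAT3, the main factor downstream of gp130, at 157 ± 22.5 TPM and JAK1 at 105 ± 15.8 TPM. All 25 with an entry of 29 NF-kappaB and adaptor genes did so too, led by the ubiquitin ligase BIRC2 at 91.3 ± 9.72 TPM. Of the gp130 family outside the rule, 5 of 7 passed, led by CNTFR, the CNTF receptor, at 59.03 ± 28.4 TPM and OSMR, the oncostatin M receptor, at 39.3 ± 7.59 TPM. Atypical and other chemokine genes passed in 6 of 7 cases. ACKR3, a scavenger of CXCL12, stood at 27.0 ± 10.6 TPM and ACKR1, the venular chemokine-binding receptor, at 21.9 ± 6.23 TPM. Among colony stimulating factors and kin, 5 of 9 passed, with MIF at 144 ± 10.9 TPM, CSF1 at 38.2 ± 7.37 TPM and CSF1R at 25.4 ± 10.6 TPM. TNF family genes outside the rule passed in 9 of 12 cases, led by the lymphotoxin beta receptor LTBR at 54.0 ± 2.59 TPM, and FASLG was listed at 0. Inflammatory effectors passed in 10 of 11 cases, led by the adhesion molecule ICAM1 at 35.4 ± 3.84 TPM, and Toll-like receptors in 6 of 8, led by TLR4 at 9.59 TPM.

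Tendon 4 was most often the highest. Of the 56 genes that averaged 1 CPM or more, 35 (62.5%) were highest in tendon 4 in CPM, against 39.3% of named genes. CCL19, CCL27, CCR7, CXCL10, CXCL11, IL15, IL1RN and TNFSF13B, 8 of the 56, reached that average only through tendon 4, so they had to be high there. Among the 48 genes that averaged 1 CPM or more over tendons 1 to 3, 27 (56.2%) were highest in tendon 4, against 38.5% of named genes chosen in that way, and 23 (47.9%) after TMM normalisation, against 22.7%. With all 56 genes and TMM normalisation, which scales for composition, 30 were highest there, against 23.6% of named genes. Tendon 2 was the lowest for 29 of 56 (51.8%), against 40.9% of named genes, and for 28 after TMM normalisation, against 24.4%. Tendon 1 was the highest for 12.5% against 23.1% and the lowest for 35.7% against 36.1%. Tendon 2 was the highest for 1.79% (IL17B alone), against 13.5%, and after TMM normalisation for 5 of 56 (8.93%), against 28.7%. Tendon 3 was the highest for 23.2% against 24.1% and the lowest for 3.57% against 10.5%, and tendon 4 was the lowest for 8.93% against 12.4%. By class, 6 of 8 TNFRSF receptors and 10 of 19 interleukin receptors were highest in tendon 4, to be read beside the 39.3% of named genes. The other classes hold the 8 genes that passed only through tendon 4, so their counts were partly fixed by the filter. They were all 4 chemokine receptors, 5 of 7 CC chemokines, 2 of 3 CXC chemokines, 6 of 11 interleukin ligands and 2 of 4 TNFSF ligands. With tendon 4 left out, tendon 3 was the highest for 41 of 56 (73.2%), against 44.9% of named genes.

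The highest tendon was at least 4 times the lowest for 9 of the 56 (16.1%), against 4.34% of named genes, a count that the same filter affects. These were CCL2 (4.70-fold), CCR7 (4.54-fold), CXCL8 (8.89-fold), CXCL10 (8.72-fold), CXCL11 (10.9-fold), IL17B (5.63-fold), IL1RN (14.3-fold), IL31RA (4.11-fold) and TNFSF13B (7.24-fold) in CPM. The set is less abundant than named genes at large, with a median of 6.99 CPM against 24.1 CPM, and all 9 lay below 10 CPM. Within that band 9 of 32 (28.1%) reached 4-fold, against 9.94% of named genes, and above it 0 of 24 did, against 2.19%. Among the 48 genes that averaged 1 CPM or more over tendons 1 to 3, 4 (8.33%) had a 4-fold range over all tendons, against 3.68% of named genes: CCL2, CXCL8, IL17B and IL31RA. With tendon 4 left out of both filter and range, 2 of these 48, CXCL8 and IL17B, reached 4-fold, against 1.61% of named genes. Over tendons 1 to 3 of all 56 genes it was 3 (5.36%), IL1RN as well, against 1.73% of named genes. With 0.5 CPM added to each value, 4 of the 56 reached 4-fold, against 2.92% of named genes.

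Markers of leukocytes at large, macrophages, T cells, fat and fast muscle fibres were also highest in tendon 4, but the sums for B cells and natural killer cells were not. All 5 pan-leukocyte markers were highest there in CPM, and their summed TPM was 91.4, 100.4, 126 and 180.1 in tendons 1 to 4. Of 12 macrophage markers 10 were highest there, with sums of 109.7, 89.7, 218 and 289.8 TPM. T cell markers summed to 1.54, 1.35, 2.23 and 9.15 TPM, none of the 7 with an entry had a mean of 1 TPM, and CD2, ZAP70 and TRAC were at 0 in tendon 1. B cell markers summed to 5.59, 3.69, 6.29 and 5.62 TPM, highest in tendon 3, although 2 of the 4 peaked in tendon 4. Natural killer markers summed to 5.83, 2.14, 3.47 and 4.70 TPM, highest in tendon 1, where 2 of 3 peaked. Neutrophil markers summed to between 4.92 and 8.68 TPM, highest in tendon 4, where 2 of 4 peaked, with MPO highest in tendon 1 and S100A9 in tendon 3. Mast cell markers summed to between 1.92 and 5.80 TPM, highest in tendon 4, where 2 of 3 peaked. Adipocyte markers, 6 of 6 highest in tendon 4, summed to 249, 404, 548 and 1043 TPM. Endothelial markers, with sums of 275, 323, 434 and 410 TPM, and pericyte markers, with 504, 531, 660 and 624 TPM, were highest in tendon 3. There 6 of 9 endothelial and 4 of 8 pericyte markers peaked, while 3 of each peaked in tendon 4. Muscle markers had their highest sum in tendon 2, where 5 of 9 peaked, but the other 4 peaked in tendon 4. Genes of fast fibres stood far apart there: TNNC2, fast troponin C, had 1.59, 20.4, 4.41 and 926 TPM, the myosin gene MYH2 0.548, 0.922, 1.01 and 240.3 TPM, and MYH1 0.239, 0.893, 0.436 and 99.4 TPM. Tenocyte markers had their highest sum in tendon 1, where 3 of 7 peaked, with 2 in tendon 2 (THBS4 and FMOD) and 2 in tendon 4 (TNMD and TNC). The part of these cells in the cytokine levels was not tested.

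**Figure D3:**
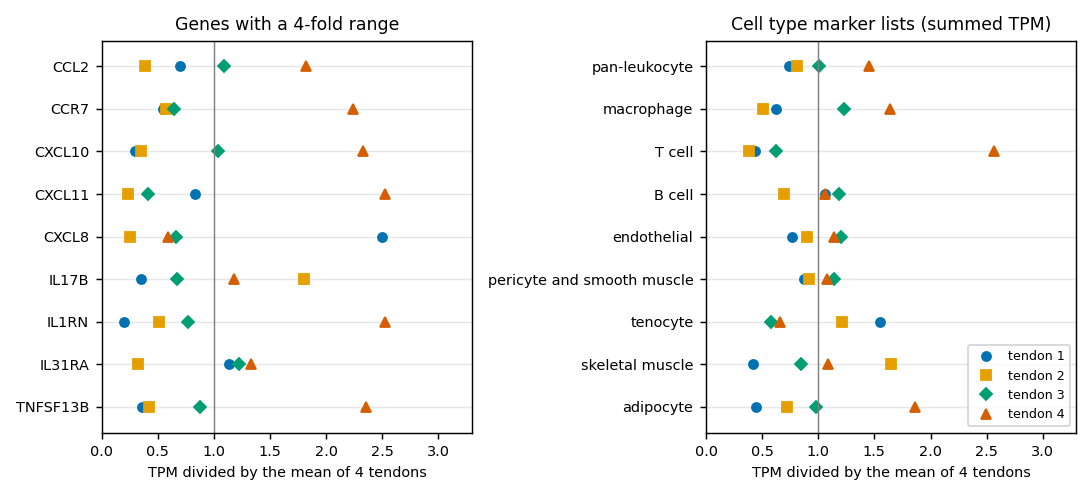
TPM of each tendon divided by the mean of 4, for the 9 genes with a 4-fold range (left) and for summed markers of 9 cell types (right), with 1 point per tendon and a line at 1. CCL2, CCR7, CXCL10, CXCL11, IL1RN, IL31RA and TNFSF13B are highest in tendon 4, CXCL8 in tendon 1 and IL17B in tendon 2. Of these, CCR7, CXCL10, CXCL11, IL1RN and TNFSF13B averaged 1 CPM only through tendon 4, so they had to be high there. Summed pan-leukocyte, macrophage, T cell and adipocyte markers are highest in tendon 4, and B cell markers in tendon 3.

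A gene's biological coefficient of variation, the spread between animals beyond counting noise, was estimated in edgeR. The median over 54 of these genes was 0.286, against 0.201 over 10130 named genes, and 42.6% lay above the trend at their own abundance, against 20.8% of named genes. CXCL11 (0.714), CXCL10 (0.676), CXCL8 (0.672), IL17B (0.547) and CCL2 (0.485) had the largest values of the 54. IL1RN, TNFSF13B and CCR7, which had a 4-fold range, were not among the 54, because they reached 1 CPM in tendon 4 alone. At the other end, TNFSF12-TNFSF13 (0.169), TNFRSF1A (0.175), IL17RC (0.178), IL1R1 (0.179) and IL17RA (0.181) varied least. IL11RA had 0.185 and IL6ST 0.248.

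**Figure D4:**
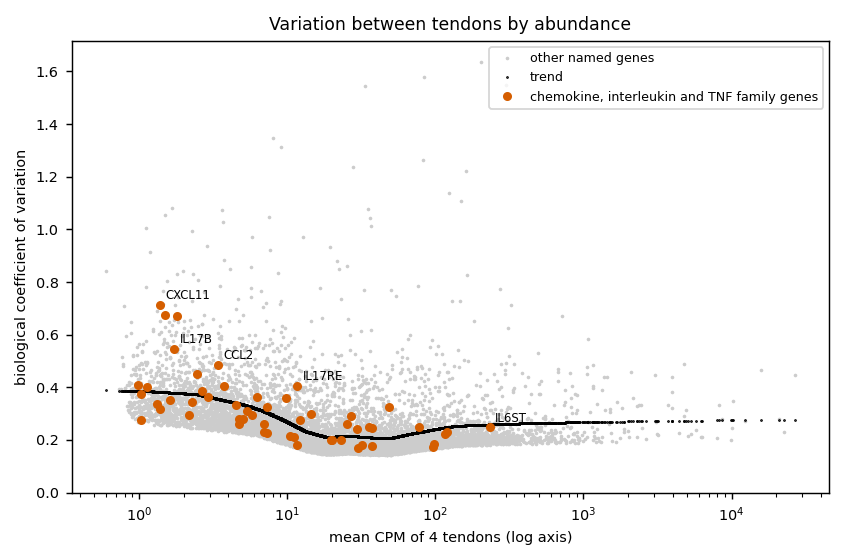
Biological coefficient of variation against mean CPM (log axis) for 10130 named genes, with the 54 chemokine, interleukin and TNF family genes in colour and the trend in black. CXCL11, at 0.714, and IL17B, at 0.547, lie well above the trend, and IL6ST, at 0.248, lies near it.

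Estimated counts were not whole numbers for 19 of the 109 genes (17.4%), against 26.6% of named genes, at a tolerance of 0.001 counts. Such values arise where reads that match several transcripts are divided between them, so these levels depend on that division. The 19 had longer transcripts, with a median of 3793 bases against 1302 bases for the other 90. They were CCL5, CCL11, CCR6, CCR9, IL1A, IL1RAP, IL4R, IL6R, IL9R, IL13RA2, IL16, IL22RA1, IL31RA, IL36A, IL36G, IL36RN, TNFRSF1A, TNFSF8 and TNFSF10. Of the 18 that averaged 1 CPM or more, 14 (77.8%) were lowest in tendon 2, against 49.5% of named genes with such counts. Of the 38 whose counts were whole, 15 (39.5%) were lowest there, near the 40.9% of all named genes. IL36A in tendon 2 was 0.594 times its own mean over tendons, IL1A 0.569 times, CCR9 0.553 times, CCR6 0.518 times, IL36RN 0.503 times, CCL5 0.470 times and IL31RA 0.324 times. The rest of the 14 ran from 0.548 times (IL6R) to 0.743 times (IL13RA2). IL4R, TNFSF8, TNFRSF1A and TNFSF10 were the exceptions, not lowest in tendon 2 in CPM. Their TPM there was 1.25, 0.990, 0.899 and 0.777 times their means, in that order. Tendon 4 was the highest for 23 of the 38 genes with whole counts (60.5%), against 39.3% of all named genes. It was also the highest for 12 of the 18 others (66.7%), against 42.5% of named genes with such counts. The 8 genes that reached 1 CPM only through tendon 4 all had whole counts, so their place among the 23 was fixed by the filter. The part of shared reads in these levels was not tested.

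Members of these families lie in clusters, and neighbours differed widely in level. On OryCun2.0, the build named by the submitters, 54 of the 109 genes (49.5%) had another within 1000000 bases, in 19 groups. CCL21 (ENSOCUG00000016448.3, chromosome 1, 19113237 to 19114891), CCL19, CCL27 and IL11RA (ENSOCUG00000023782.1, chromosome 1, 19164449 to 19168059) lay within 54.8 kb, with mean levels of 164, 6.29, 5.11 and 163 TPM in that order. IL6ST (ENSOCUG00000007839.3, chromosome 11, 71908586 to 71943040) lay beside IL31RA, which had 0.808 ± 0.370 TPM.

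CXCL11, CXCL10 and CXCL9 formed a group of 56.9 kb on chromosome 15 (74344583 to 74401482). Each of the 3 was highest in tendon 4, as were 39.3% of named genes that averaged 1 CPM or more. CXCL10 and CXCL11 reached that average only through tendon 4, and CXCL9 did not reach it, at 0.910 CPM. CCL2, CCL11 and CCL1 lay within 77.2 kb on chromosome 19, and CCL5 and CCL14 within 42.2 kb of the same chromosome. The IL-1 ligand group on chromosome 2 (97559306 to 97881109) held IL1A, IL1B, IL36G, IL36A, IL36RN, IL1F10 and IL1RN, from IL1F10 at 0 to IL36A at 17.8 TPM. The receptor group of chromosome 2 (89986421 to 90467449) held IL18RAP, IL18R1 and IL1RL1, with means under 1 TPM, beside IL1R1 and IL1R2. IL1RL1, the receptor of IL-33, had 1, 15, 20 and 23 counts. The group of IL5, IL13 and IL4 on chromosome 3, which encodes cytokines of type 2 immunity, stayed below 1 TPM throughout. CCR9, CXCR6, CCR1 and CCR3 lay within 253 kb on chromosome 9. IL17RC and IL17RE were neighbours on scaffold GL018802, within 27.0 kb, at 33.1 and 10.2 TPM.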

How the data were processed

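The table the authors deposited gives an estimated count for every transcript and tendon, beside a symbol, identifier, position and length. The submitters' processing notes name OryCun2.0, kallisto 0.42.4, FastQC and bcl2fastq, without roles. Filters and the use of strand are not given in the sources used here. Counts were summed per gene. TPM was computed from annotated lengths, CPM from totals (19759696 to 30646052). Alternatives used lengths shortened by 150 bases with at least 50 kept, CPM, other thresholds, DESeq2 1.42.0 size factors and each tendon left out.

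Expected counts were rounded, normalised by TMM and given a genewise dispersion with an intercept alone in edgeR 4.0.16 (R 4.3.3), after dropping genes that reached 1 CPM in fewer than 2 tendons. The script was tested on simulated data. Other steps used scipy 1.17.1, pandas 2.3.3 and numpy 2.4.6 under Python 3.11.15. No 2 libraries agreed within counting noise. The genes, lists, ratios and thresholds were chosen with earlier results of these data known. Named genes were those with a mean of at least 5 TPM, up to 4 per class or list, the 10 most variable by SD of log2(CPM + 1), genes of the ratios, IL1B, CXCL8, CCL2, IL33 and IL34, members of genomic groups, and genes behind counts of 5 or fewer; the remaining members were named after their values were seen. Intervals from counts cover counting error only.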

Additional observations from a re-analysis of the deposited data

Results flagged for a closer look

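Among 70 values (TPM of the 53 genes above 1 TPM, the class sums and the ratios), 3 had 1 tendon apart from the other 3 by Dixon's ratio above its 95% critical value, where chance gives about 3.5. IL34 was highest in tendon 1, with a ratio of 0.856. IL36G and IL1RAP were lowest in tendon 2, with ratios of 0.852 and 0.903, and both had counts that were not whole numbers. After TMM normalisation the ratios were 0.674 for IL34, 0.757 for IL36G and 0.945 for IL1RAP. On log2(CPM + 1) they were 0.780, 0.714 and 0.754 in that order, and none of the 3 passed.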

How the results depend on the processing

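Under alternatives, 62 mean log2 ratios kept their direction and 1 did not: that of IL34 to CSF1R turned to -0.81 in CPM. In CPM the shares were 0.0140% for CC chemokines, 0.0655% for interleukin receptors, 0.00740% for TNFSF ligands, 0.0249% for TNFRSF receptors and 0.130% for all 109 genes; with shortened lengths, interleukin receptors took 0.0419% and TNFSF ligands 0.00504%. A mean of 5 TPM was reached by 33 genes. A 4-fold range was met by 0 of 24 genes that averaged 10 CPM or more, 21 of 75 with a count in every tendon, 4 with 0.5 CPM added, and 2 to 10 genes with 1 tendon left out, the lowest without tendon 4, which also took 8 genes out of the filter. Among choices made after seeing the data, genes averaging 1 CPM over tendons 1 to 3 gave 4 with a 4-fold range, and the 56 genes over tendons 1 to 3 gave 3. The whole-count genes gave 23 highest in tendon 4, among them the 8 that passed the filter only through it, and 15 lowest in tendon 2, of 38. Those are 60.5% and 39.5%, against 39.3% and 40.9% of all named genes. The cause was not tested, beyond the smaller number of genes in that last choice and at stricter thresholds. Levels of named genes moved by less than 1 SD in 421 cases and by more in 47. No paired analysis was possible because the design holds 1 group. With 1 tendon per animal, the animal, tissue left after scraping and library preparation cannot be told apart.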
